A study of Drosophila melanogaster with 5 samples.

Results

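The genes described here encode the subunits of the vacuolar proton pump (V-ATPase). They were taken as all probe sets whose single gene symbol in the array's annotation starts with Vha, which gave 31 genes on 32 probe sets, of 11982 genes on 18769 probe sets in all. Where a gene had more than 1 probe set, the one with the highest mean over the 5 arrays stood for it. Transcript levels were measured in cephalic complexes, the larval brain with its eye-antennal imaginal discs. The lgl group held 3 arrays of lgl27S3/lglE2S31 larvae at day 4, whose mutated gene is lethal giant larvae and which stay in the third instar, and the FRT82B group held 2 arrays of FRT82B larvae at day 0. Each array held RNA pooled from many complexes, and titles name the arrays as biological replicates. The study's text calls the control larvae by another genotype name than the labels do, and because control larvae pupate, no FRT82B array of day 4 exists for comparison, so that genotype and age cannot be told apart. The arrays hold pooled tissue, in which fewer cells of a type and less RNA per cell cannot be told apart.

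The V-ATPase is a rotary machine that spends ATP to move protons into lysosomes, endosomes, secretory vesicles and synaptic vesicles, or out of cells across the plasma membrane. Its soluble V1 sector (subunits A to H) hydrolyses ATP and turns a central stalk, and its membrane V0 sector (subunits a, c, c'', d and e) carries the protons through a ring of proteolipids. In the fly, most subunits have 1 broadly used gene and, for some, further copies that are used in few tissues, such as the testis or the gut. In larval tissue the pump is known for acidifying the endosomes and lysosomes through which Notch and nutrient signalling pass. Below, "general" marks the 13 measured genes taken as the broadly used ones, and "restricted" the 16 further copies. The other two, VhaM9.7-a and VhaAC45RP, were not classed. Vha68-1 and Vha68-2, the general genes of the catalytic subunit A, were not analysed here.

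All values are log2 expression, and a difference is lgl minus FRT82B. Differences were tested with limma over all 18769 probe sets with Benjamini-Hochberg adjustment. A gene was called where it passed both an adjusted p of 0.05 and a log2 change of 1 in either direction. Across probe sets the lgl arrays correlated with each other at 0.995 to 0.997, and the FRT82B arrays at 0.981. With the lgl arrays, FRT82B array 2 correlated at 0.982 to 0.984 and FRT82B array 1 at 0.970 to 0.972. The mutated gene itself, l(2)gl, read 2.44, 2.40 and 2.24 in lgl and 7.74 and 6.74 in FRT82B. The 3′ minus 5′ log2 difference of the actin control probe sets, a measure of RNA quality, was 0.355 to 0.576 in lgl and 0.714 and 0.732 in FRT82B. The same difference was 1.41 to 1.65 in lgl and 1.68 and 2.01 in FRT82B for eIF-4A, and it overlapped between the groups for GAPDH (1.18 to 1.36 in lgl, 1.21 and 1.37 in FRT82B). Its part in the results below was not tested.

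No pump gene was called, but most of the genes that the tissue used read lower in lgl complexes. 0 of 31 genes passed the adjusted p, against 2.09% of all genes, and 0 of 31 were called, against 1.34%. The smallest adjusted p of a pump gene was 0.0943 (limma, Vha16-1). At an unadjusted p under 0.05, limma gave 7 of 31 pump genes as lower and 0 as higher, where 11.3% and 10.7% of all genes lay. For 15 of 31 genes every lgl array lay below both FRT82B arrays, and for 0 every lgl array lay above them, where the shares over all genes were 21.1% and 17.6%. The subunits of 1 complex are not independent of each other, and no test was made of these counts as a set.

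The members split by their level. 17 genes read from 6.66 to 12.2, which included all 13 general genes, and the other 14 never exceeded 5.55. By a rule that set the cut at the median of probe set means (3.84), 19 genes were on the brighter side. Vha36-3 and Vha16-4 passed this cut by their FRT82B levels, with lgl means of 3.58 and 3.84 under it, and are left out of the counts that follow, which leaves the 17 genes above. Of these 17, 15 had a change below 0, against 48.3% of the 7485 bright genes in all, and 7 had a change of -0.5 or lower, against 12.7%. For 10 of 17 every lgl array lay below both FRT82B arrays, against 23.2% of bright genes, and 7 of 17 had an unadjusted p under 0.05 and a change below 0, against 15.0% (limma). The median change was -0.34 over these 17 genes and 0.019 over all bright genes. The bright genes are those above the cut of 3.84, which is lower than 6. Of the 5029 genes that read above 6 on every array, 2421 had a change below 0 and 516 a change of -0.5 or lower. Among these 5029, every lgl array lay below both FRT82B arrays for 22.8%, and 744 were lower at an unadjusted p under 0.05 (limma).

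**Figure D1:**
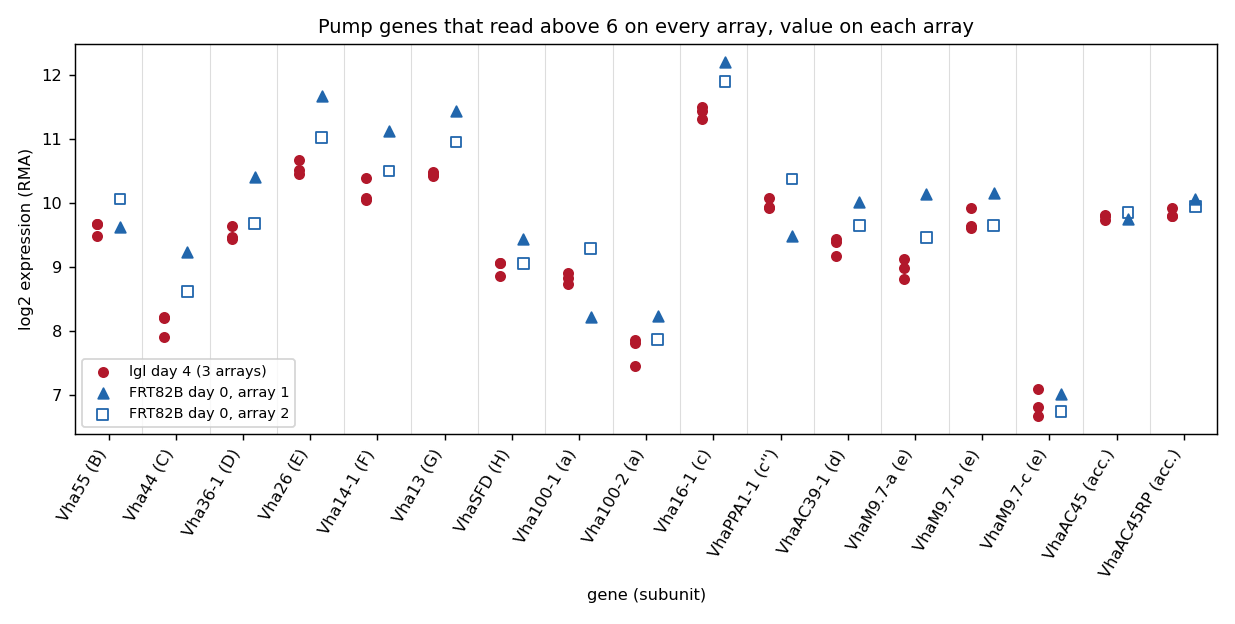
Log2 expression (y axis) of the 17 pump genes that read above 6 on every array (x axis, with the subunit in brackets), 1 mark per array, with the 3 lgl arrays left of the 2 FRT82B arrays. Levels of different genes cannot be compared, since each probe set binds differently; for Vha26, Vha13 and Vha16-1 the lgl arrays lie below both FRT82B arrays, and for Vha100-1 and VhaPPA1-1 they lie between them.

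In the V1 sector all 7 general genes measured had a change below 0, against 48.3% of bright genes, with a median of -0.65, or 1.57-fold lower. Vha44, subunit C, which joins V1 to V0 and leaves when the pump comes apart, read 8.21, 8.22 and 7.91 in lgl and 9.23 and 8.62 in FRT82B. Its groups did not overlap, with lgl 1.75-fold lower (log2 change -0.81, SE 0.22, limma adjusted p = 0.168). Vha26, subunit E of the outer stalk, read 10.52, 10.68 and 10.46 in lgl and 11.68 and 11.03 in FRT82B. All of its lgl arrays lay below both FRT82B arrays, and FRT82B array 2 was the nearer of these, with a change of -0.80 (SE 0.22, limma adjusted p = 0.166). Vha13, subunit G and the partner of subunit E in the outer stalk, read 10.46, 10.42 and 10.49 in lgl and 11.45 and 10.96 in FRT82B. The spread of its lgl arrays was small (SD 0.035), and its change was -0.75 (SE 0.16, limma adjusted p = 0.113), or 1.68-fold lower.

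The central stalk genes followed with smaller margins. Vha14-1, subunit F, read 10.04, 10.08 and 10.40 in lgl and 11.13 and 10.50 in FRT82B, a change of -0.65 (SE 0.23, limma adjusted p = 0.253). lgl array 3 came close to FRT82B array 2. Vha36-1, subunit D, read 9.47, 9.44 and 9.64 in lgl and 10.41 and 9.68 in FRT82B, so that the groups were separated by the height of FRT82B array 1 for the most part (change -0.53, SE 0.23, limma adjusted p = 0.341). VhaSFD, the regulatory subunit H, read 9.07, 9.07 and 8.87 in lgl and 9.44 and 9.06 in FRT82B. Its groups overlapped at FRT82B array 2, and its change was -0.25 (SE 0.15). Vha55, subunit B, the nucleotide-binding partner of the catalytic subunit, read 9.67, 9.67 and 9.49 in lgl and 9.64 and 10.06 in FRT82B. It differed from the other 6 general V1 genes in that FRT82B array 1 was the lower control, within the range of the lgl arrays (change -0.24, SE 0.15, limma adjusted p = 0.461).

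In the V0 sector the groups separated for some general genes and overlapped for others. The 6 general V0 genes, with the accessory gene VhaAC45 among them, had a median change of -0.26. For 3 of these 6 every lgl array lay below both FRT82B arrays, against 23.2% of bright genes. Vha16-1, the proteolipid c of the rotor ring, had the smallest p of all pump genes. It read 11.44, 11.50 and 11.32 in lgl and 12.21 and 11.90 in FRT82B, a change of -0.64 (SE 0.12, limma adjusted p = 0.0943), or 1.56-fold lower. Its other probe set read 9.35, 9.34 and 9.19 in lgl and 9.96 and 9.65 in FRT82B, again with no overlap (change -0.51, SE 0.12, limma adjusted p = 0.130). VhaAC39-1, subunit d, which couples the central stalk to the ring, read 9.40, 9.44 and 9.18 in lgl and 10.02 and 9.65 in FRT82B, a change of -0.50 (SE 0.15, limma adjusted p = 0.198). Vha100-2, the general subunit a, which holds the channels by which protons reach the ring, read 7.81, 7.86 and 7.46 in lgl and 8.23 and 7.87 in FRT82B (change -0.34, SE 0.18, limma adjusted p = 0.407). Here lgl array 2 and FRT82B array 2 were almost level.

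For VhaPPA1-1 and VhaAC45, as for VhaM9.7-b below, the lgl arrays did not all lie below both FRT82B arrays. VhaPPA1-1, the c'' proteolipid of the same ring, read 9.93, 10.08 and 9.94 in lgl and 9.49 and 10.38 in FRT82B. All lgl arrays lay between the FRT82B arrays, which were 0.895 apart. The change of 0.050 (SE 0.28) had a 95% interval from -0.70 to 0.80, which includes the change of Vha16-1 (-0.64). VhaAC45, the accessory membrane protein known as ATP6AP1 in mammals, read 9.82, 9.80 and 9.74 in lgl and 9.76 and 9.86 in FRT82B. Its change was -0.022 (SE 0.065) with a 95% interval from -0.19 to 0.15, so that a difference as large as that fitted for Vha44 lay outside it. VhaAC45RP, a relative of VhaAC45, read 9.80, 9.80 and 9.92 in lgl and 10.07 and 9.94 in FRT82B, a change of -0.17 (SE 0.080). ATP6AP2, the other accessory protein, whose older symbol was VhaM8.9 and which the rule on symbols leaves out, read 10.15, 10.23 and 10.15 in lgl and 10.18 and 10.34 in FRT82B (change -0.079, SE 0.078).

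**Figure D2:**
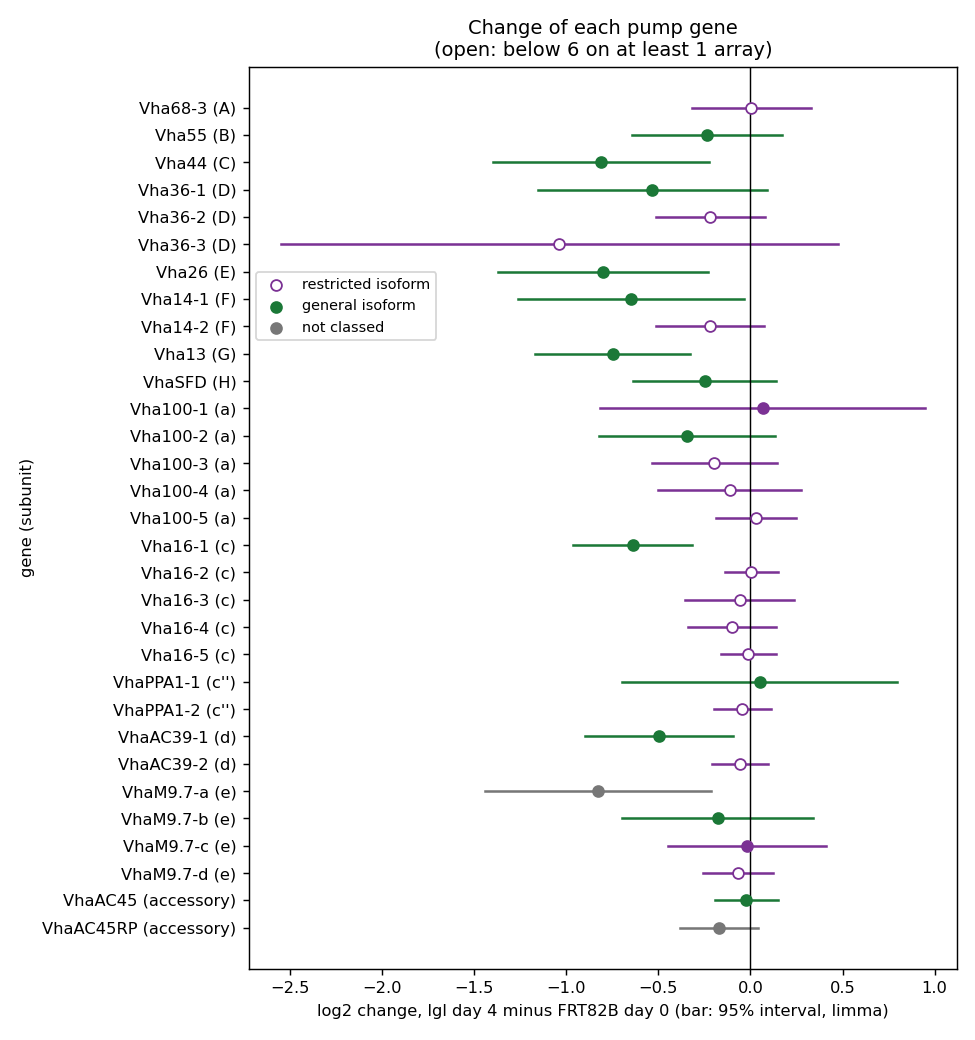
Log2 change of each of the 31 pump genes (x axis, lgl day 4 minus FRT82B day 0) by subunit (y axis, V1 subunits first), with the limma 95% interval as a bar and the class of isoform as the colour; open points read below 6 on at least 1 array. The intervals of Vha44, Vha26, Vha14-1, Vha13, Vha16-1, VhaAC39-1 and VhaM9.7-a lie below 0, without adjustment for the number of genes tested.

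Subunit a had 5 genes on the array, and Vha100-1, the isoform known for its role in neurons and at synapses, was the only other one above 6. It read 8.91, 8.83 and 8.74 in lgl and 8.22 and 9.29 in FRT82B. The lgl arrays were close to each other (SD 0.086) and lay between FRT82B arrays that were 1.07 apart. Its change was 0.066 (SE 0.33), with a 95% interval from -0.82 to 0.95, which covers changes of the size seen for Vha44 or Vha26 in either direction. The 3 remaining isoforms, Vha100-3, Vha100-4 and Vha100-5, read from 2.60 to 3.44 on all arrays. Vha100-4 is the next protein-coding gene to Vha100-2 on the chromosome.

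Subunit e, a small membrane protein, had 4 genes on the array, and 3 of them read above 6. VhaM9.7-a read 9.13, 8.98 and 8.81 in lgl and 10.14 and 9.46 in FRT82B, with no overlap and a change of -0.83 (SE 0.23, limma adjusted p = 0.172), or 1.78-fold lower. VhaM9.7-b, the general isoform, read 9.64, 9.62 and 9.93 in lgl and 10.16 and 9.65 in FRT82B, and its groups overlapped (change -0.18, SE 0.20). VhaM9.7-c read 6.66, 6.81 and 7.09 in lgl and 7.01 and 6.74 in FRT82B, a change of -0.020 (SE 0.16). VhaM9.7-d stayed between 3.14 and 3.32.

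Whether isoforms of 1 subunit changed by unequal amounts was asked from the difference of their log2 values on each array, in which the binding of the probes cancels. Of 16 possible pairs, 5 had both genes on the brighter side. For 2 of these pairs, those with Vha16-4 or Vha36-3, this held only through the FRT82B levels of that gene. With 3 arrays against 2 the exact two-sided permutation test has 10 splits and cannot go below p = 0.1. VhaM9.7-a minus VhaM9.7-b read -0.51, -0.63 and -1.12 on the lgl arrays and -0.024 and -0.18 on the FRT82B arrays, with no overlap (difference -0.65, SE 0.25, exact permutation p = 0.1, 0.25 after adjustment over the 5 pairs). After quantile normalisation again the difference was -0.67 (exact permutation p = 0.2), a p that does not tell whether the groups still separated. Vha100-1 minus Vha100-2 was 1.10, 0.972 and 1.28 on the lgl arrays and -0.0087 and 1.42 on the FRT82B arrays. The lgl arrays again lay between the controls, and the difference of 0.41 (SE 0.55, exact permutation p = 0.6) turned to -0.31 without FRT82B array 1. VhaM9.7-c minus VhaM9.7-b differed by 0.16 (SE 0.11, exact permutation p = 0.3), which was 0.013 after quantile normalisation again (exact permutation p = 1), 0.034 without FRT82B array 1 and 0.28 without FRT82B array 2. The other 2 pairs set a gene near background against a bright one, and no conclusion is drawn from them. Vha16-4 minus Vha16-1 was higher on all lgl arrays (0.54, SE 0.17, exact permutation p = 0.1). Vha16-4 itself read 3.71 to 3.97 throughout, so that this difference mainly restates the change of Vha16-1. Vha36-3 minus Vha36-1 differed by -0.50 (SE 0.43, exact permutation p = 0.3).

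**Figure D3:**
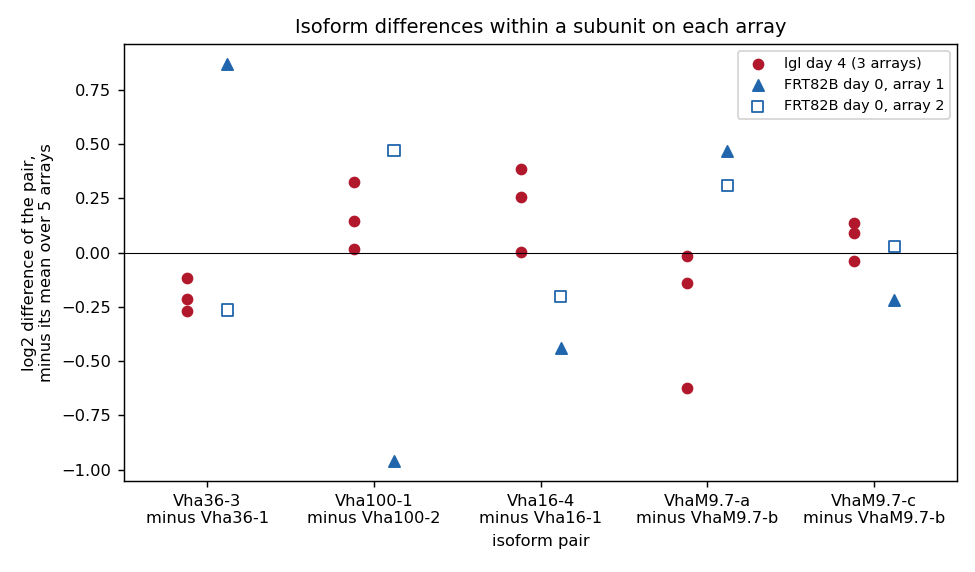
Difference of the log2 values of the 2 genes of each isoform pair on every array, after subtraction of the pair's mean over the 5 arrays (y axis), for the 5 pairs on the brighter side (x axis), with lgl arrays left of FRT82B arrays. The groups separate for VhaM9.7-a minus VhaM9.7-b and for Vha16-4 minus Vha16-1, where Vha16-4 is near background. For Vha100-1 minus Vha100-2 the FRT82B arrays lie on both sides of the lgl arrays.

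Most restricted copies were near background on all 5 arrays. Of the 16, 12 read from 2.37 to 3.44 and lay under the median of probe set means, namely Vha68-3 (A), Vha36-2 (D), Vha14-2 (F), Vha100-3, Vha100-4 and Vha100-5 (a), Vha16-2, Vha16-3 and Vha16-5 (c), VhaPPA1-2 (c''), VhaAC39-2 (d) and VhaM9.7-d (e). Their changes ran from -0.22 to 0.030, and RMA compresses changes at such levels, so that little can be read from them. For 5 of these 12 every lgl array lay below both FRT82B arrays, against 21.1% of all genes, but by small steps, as for VhaAC39-2 with 3.20, 3.19 and 3.18 in lgl and 3.28 and 3.21 in FRT82B. In 2 cases a copy near background lies in the chromosome beside or close to the general gene of its subunit: Vha100-4 next to Vha100-2, and VhaPPA1-2 with 1 protein-coding gene between it and VhaPPA1-1. Vha16-2 and Vha16-3, both near background, are neighbours of each other.

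Vha36-3, a further subunit D, was the exception among the restricted copies. It read 3.47, 3.59 and 3.69 in lgl and 5.55 and 3.69 in FRT82B. The signal was on FRT82B array 1 alone, and FRT82B array 2 was level with lgl array 3. Its fitted change of -1.04 (SE 0.57, limma adjusted p = 0.421) was the most negative of all pump genes and became -0.11 without FRT82B array 1.

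Between the classes, the median change was -0.50 over the 13 general genes, or 1.41-fold lower, and -0.057 over the 16 restricted genes, of which 12 lay near background. The median over all genes was -0.026. Of the 13 general genes, 12 had a change below 0, and for 8 every lgl array lay below both FRT82B arrays, against 23.2% of bright genes. The only restricted genes above 6 on every array were Vha100-1 and VhaM9.7-c. For both, the lgl arrays overlapped the FRT82B arrays, and so few genes cannot set the classes apart. No test was made between the classes.

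The size of these differences depended on which control array was used. FRT82B array 2 was lower than FRT82B array 1 for 13 of the 17 pump genes above 6 (76.5%), against 51.8% of all bright genes and 54.4% of all genes above 6 on every array. The median over the 17 genes was -0.52 against FRT82B array 1 alone and -0.33 against FRT82B array 2 alone. For the 13 general genes these medians were -0.68 and -0.33. Without FRT82B array 2, limma called 4 pump genes, which were Vha44 (-1.12, adjusted p = 0.0390), Vha26 (-1.12, adjusted p = 0.0242), Vha36-3 (-1.97, adjusted p = 0.0167) and VhaM9.7-a (-1.16, adjusted p = 0.0327), with the lone FRT82B array assumed to vary like the lgl arrays. These were 4 of 31 pump genes, where limma then called 8.68% of all genes, and 9 of 31 passed the adjusted p, where 28.2% of all genes did. Without FRT82B array 1 limma called 0, and the changes of Vha44, Vha26 and VhaM9.7-a were -0.50, -0.47 and -0.49. Vha13, Vha16-1 and Vha36-1 passed the adjusted p but not the fold without FRT82B array 2 (limma adjusted p = 0.0165, 0.0292 and 0.0286), and so did Vha100-1 and VhaPPA1-1 in the other direction. Vha100-1 then had a change of 0.60 (limma adjusted p = 0.0371) and VhaPPA1-1 of 0.50 (limma adjusted p = 0.0489), against -0.47 and -0.40 without FRT82B array 1.

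**Figure D4:**
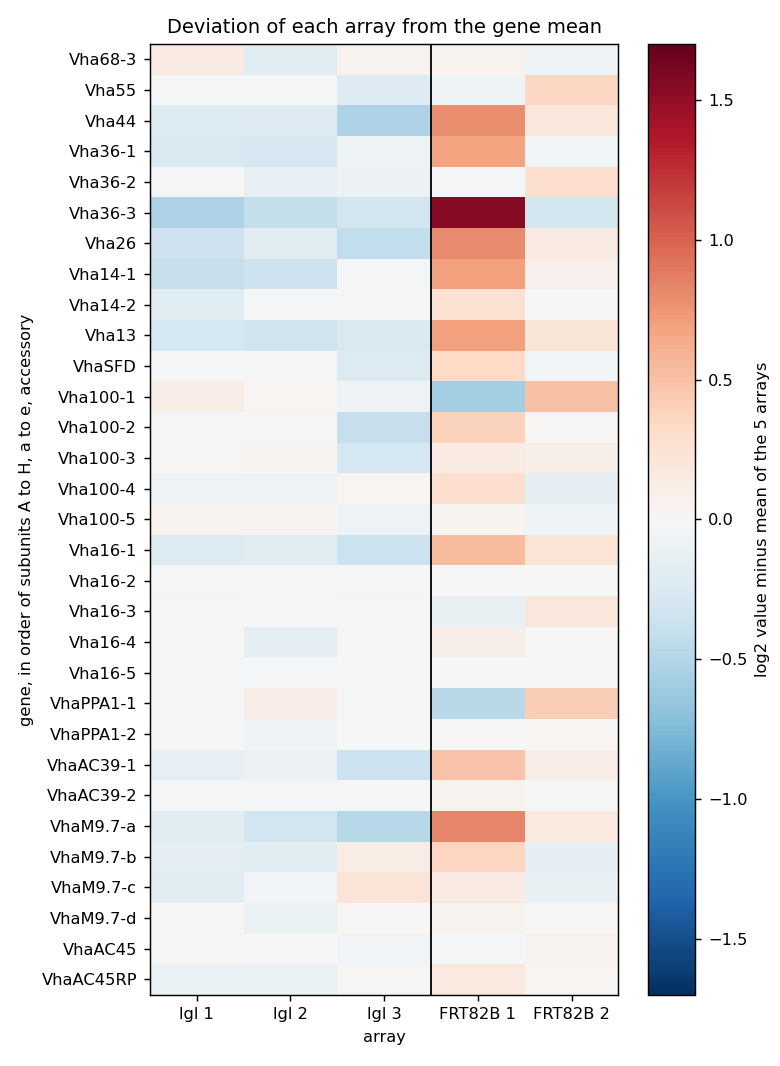
Log2 value of each pump gene (rows, by subunit) on each array (columns) minus the gene's mean over the 5 arrays, as a colour from blue (lower) to red (higher). FRT82B array 1 stands highest for most of the V1 genes, whereas for Vha55, Vha100-1 and VhaPPA1-1 FRT82B array 2 does.

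Genes around the pump were followed in lists. Of the 6 genes listed for pump assembly and regulation, 3 were measured, and 0 were called. Mitf, the fly relative of the mammalian regulator TFEB that controls lysosomal genes, read 5.19, 5.14 and 5.04 in lgl and 5.71 and 4.89 in FRT82B, and Rbcn-3B, which helps to assemble the pump, read 6.77, 6.55 and 6.44 in lgl and 6.36 and 6.84 in FRT82B. Both overlapped between the groups. CG5969 read 8.45, 8.36 and 8.57 in lgl and 8.73 and 8.46 in FRT82B.

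Of 23 measured genes of lysosomal hydrolases and membrane proteins, which need the acid that the pump makes, 0 were called, 10 had a change below 0 and 13 above. The median change was 0.020, with 0.30 against FRT82B array 1 alone and -0.12 against FRT82B array 2 alone. LManII, a lysosomal mannosidase, read 7.13, 7.15 and 6.84 in lgl and 8.86 and 8.22 in FRT82B (change -1.50, SE 0.23, limma adjusted p = 0.0651). Cln3, a lysosomal membrane protein, read 3.71, 3.61 and 3.77 in lgl and 6.34 and 3.82 in FRT82B, so that its signal was on FRT82B array 1 alone, as for Vha36-3. Of 18 measured genes of TORC1 sensing at the lysosome, where the pump and the Rag GTPases report amino acids, 0 were called (median change 0.15). For 5 of the 18 every lgl array lay above both FRT82B arrays, against 17.6% of all genes. Of the 18, 17 were on the brighter side, and 5 of 18 was close to the share over bright genes (1879 of 7485). For 1, Lamtor1, every lgl array lay below both FRT82B arrays. Nup44A, of the GATOR complex, read 8.61, 8.73 and 8.87 in lgl and 7.16 and 8.60 in FRT82B, and raptor, a core subunit of TORC1, read 5.88, 5.59 and 5.31 in lgl and 4.32 and 5.28 in FRT82B.

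Of 24 measured genes of endosomal trafficking, 1 was called. It was shi, the dynamin that pinches off endocytic vesicles, which fell to 6.91, 6.88 and 6.87 in lgl, against 7.98 and 7.91 in FRT82B (change -1.06, SE 0.059, limma adjusted p = 0.0196). AP-2alpha, a clathrin adaptor named here after its values were seen, had an adjusted p of 0.0484 in limma, but its change of -0.77 (SE 0.096) was under the fold cut-off. It read 8.61, 8.66 and 8.45 in lgl and 9.42 and 9.27 in FRT82B. The list's median was -0.10. Of 13 chloride and cation exchangers and pumps, 1 was called, kcc, a potassium chloride cotransporter, which fell to 8.18, 8.25 and 8.06 in lgl, against 9.63 and 9.56 in FRT82B (change -1.43, SE 0.084, limma adjusted p = 0.0209). Their median was -0.046. These calls, and those of the marker genes below, needed every lgl array, since without any 1 of these limma called 0 probe sets on the whole array. Whether they hold without 1 of the FRT82B arrays is not shown here. The mitochondrial ATP synthase, the related rotary machine that runs towards making ATP, had 0 of 13 genes called and a median of -0.28. For 8 of these 13 every lgl array lay below both FRT82B arrays and for 0 above, where 21.1% and 17.6% of all genes lay. All 13 were on the brighter side, where 23.2% of genes lay below and 1879 of 7485 above. ATPsynCF6 read 10.75, 10.74 and 10.66 in lgl and 11.55 and 11.03 in FRT82B, and ATPsynD read 10.76, 10.81 and 10.79 in lgl and 11.48 and 11.20 in FRT82B.

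**Figure D5:**
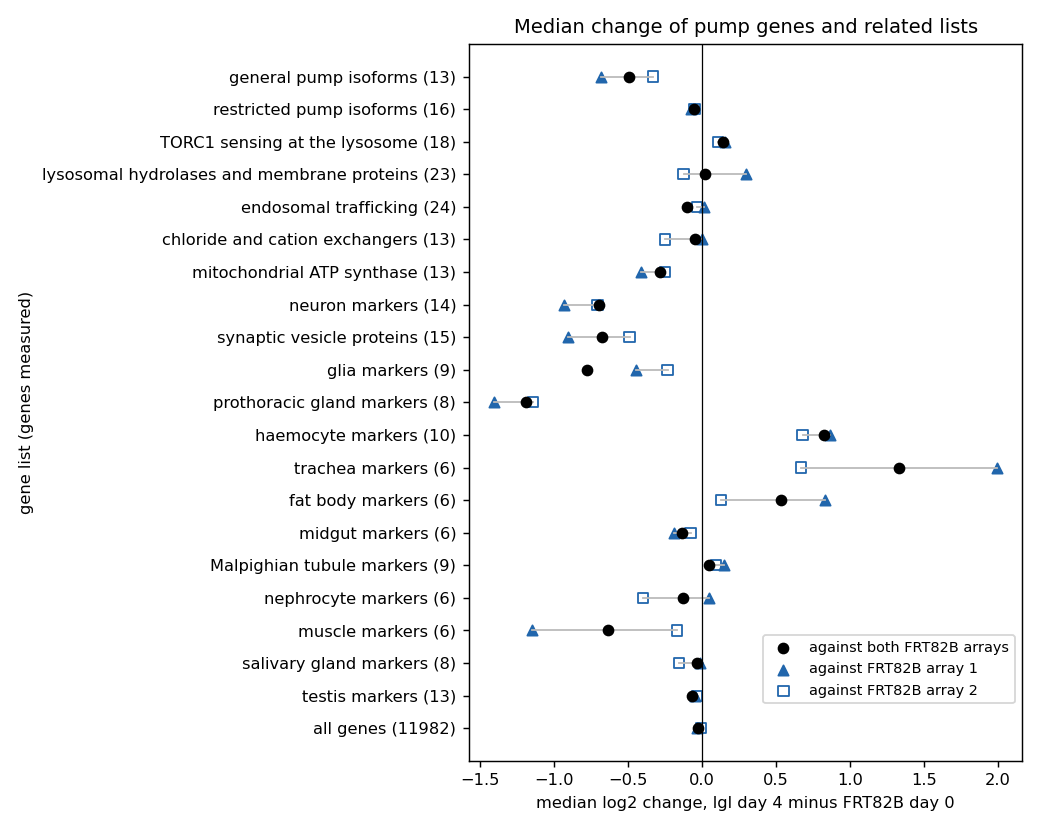
Median log2 change (x axis, lgl day 4 minus FRT82B day 0) of the general and restricted pump genes, of each list with at least 5 measured genes, and of all genes (y axis, with the number of genes), against both FRT82B arrays (black) and against each FRT82B array alone (blue). The general pump genes had a median of -0.50, the mitochondrial ATP synthase genes -0.28 and the neuron markers -0.70.

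Markers of several cell types moved with the groups, and their part in the values of the pump genes was not tested. Neuron markers had a median of -0.70 over 14 genes, with Vmat (-1.60) and fne (-1.46) called lower. Their mean log2 level was 6.98 to 7.06 in lgl and 7.89 and 7.77 in FRT82B, and 13 of 14 had a change below 0. Synaptic vesicle proteins, whose vesicles the pump loads with protons, had a median of -0.68 over 15 genes, with Vmat called lower. nSyb, VGlut, VAChT, Vmat, Csp and cpx stand in both this list and the neuron markers, so that the medians are not independent. Glia markers had a median of -0.78 over 9 genes, with Gs2 (-2.01) called lower, and a mean level of 7.71 to 7.81 in lgl and 8.60 and 8.19 in FRT82B. Of these 9, 8 had a change below 0, with medians of -0.44 (FRT82B array 1 alone) and -0.23 (FRT82B array 2 alone). repo, the gene that defines most glia, was the exception, with 8.87, 8.89 and 8.84 in lgl and 7.66 and 8.50 in FRT82B (change 0.78, SE 0.26, limma adjusted p = 0.227). Prothoracic gland markers had a median of -1.19 over 8 genes, with nvd, spok and sro called lower, and a mean level of 3.83 to 4.20 in lgl and 5.71 and 5.79 in FRT82B. For muscle markers the median was -0.64 (6 genes, 0 called), with -1.15 against FRT82B array 1 alone and -0.17 against FRT82B array 2 alone. Haemocyte markers were the other way, with a median of 0.83 over 10 genes and NimB2 called higher, as were trachea markers (median 1.33 over 6 genes, 0 called) and fat body markers (median 0.53 over 6 genes, 3 of them above 0 and 0 called). Of the 6 trachea markers, 5 had a change above 0. The other, btl, read 3.55, 3.47 and 3.55 in lgl and 3.86 and 3.55 in FRT82B (change -0.18, SE 0.11). Against FRT82B array 1 alone and FRT82B array 2 alone, the trachea median was 2.00 and 0.67, and the fat body median 0.83 and 0.13.

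Markers of tissues that are rich in the pump or use its restricted copies had list medians between -0.13 and 0.046. Midgut markers had a mean level of 3.14 to 3.23 in lgl and 3.61 and 3.26 in FRT82B (median change -0.13 over 6 genes, 0 called). Malpighian tubule markers had a mean level of 5.51 to 5.71 in lgl and 5.45 and 5.27 in FRT82B, with a median of 0.046 over 9 genes. Of these, 4 had a change below 0 and 5 above. Drip, a water channel, was called higher (2.26, SE 0.20, limma adjusted p = 0.0291). Irk2, named here after its values were seen, went the other way, with 4.97, 5.35 and 5.17 in lgl and 7.28 and 6.23 in FRT82B (change -1.59, SE 0.34, limma adjusted p = 0.115). Nephrocyte markers had a median of -0.13 over 6 genes and salivary gland markers of -0.033 over 8 genes, with 0 called in either. The control arrays differed in these lists, with FRT82B array 2 above FRT82B array 1 by a median of 0.975 and 1.10. Against FRT82B array 1 alone and FRT82B array 2 alone, the nephrocyte median was 0.047 and -0.40, and the salivary gland median -0.015 and -0.16. Testis markers had a mean level of 2.91 to 2.96 in lgl and 2.93 and 3.00 in FRT82B, in the range of the 12 restricted pump genes near background, with a median of -0.069 over 13 genes and 0 called.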

How the data were processed

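The values deposited by the authors are log2 levels of Affymetrix Drosophila arrays that they had background-corrected and normalised with RMA, by software whose version is not given in the sources used here. Because RMA brings all arrays to about 1 distribution, a shift shared by most transcripts cannot be seen. Here the 183 control probe sets were left out and lmFit and eBayes of limma 3.58.1 (R 4.3.3) were run on 18769 probe sets, with Benjamini-Hochberg adjustment. Of these, 13647 had 1 gene symbol, 402 several and 4720 none, and 13544 of the first were matched to a current gene through gene identifiers. Of the members' 32 probe sets, 7 carry a suffix for probes shared between transcripts, which were not told apart. The members, the lists, the isoform classes and the rule for genes named were chosen with earlier results of these data known. The rule names every member, in full where it is a general isoform, is called, passes the adjusted p or has an absolute log2 change of at least 0.8, and of each list the called genes or otherwise up to 2 with the largest change. The level of 6 used to describe the members was chosen after their values were seen. The 19 lists were those of pump assembly and regulation, TORC1 sensing, lysosome, endosomal trafficking, exchangers, ATP synthase, synaptic vesicles and 12 cell types. The fit was tested on simulated data. Alternatives are given in the closing section. The number of arrays limits the precision.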

Additional observations from a re-analysis of the deposited data

How the results depend on the processing

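limma called 0 pump genes with every alternative tried except without FRT82B array 2, where it called 4 (range without 1 array 0 to 4). At an unadjusted p under 0.05, limma gave 7 as lower with all arrays and from 2 to 12 without 1 array. Over the whole array limma called 197 probe sets, and 395 with brighter probe sets only, 12 with array weights, 305 with the adjusted p alone, 302 at an absolute log2 change of at least 0.5, and from 0 to 1306 without 1 array (0 without any of the lgl arrays, 71 without FRT82B array 1 and 1306 without FRT82B array 2). Of the 197 called, 102 were higher and 95 lower in lgl, against 136 and 140 with quantile normalisation again, 148 and 112 with centring, and 16 and 55 without FRT82B array 1.

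With the replicate number as a block limma called 0 probe sets and 0 pump genes, with 3 pump genes lower at an unadjusted p under 0.05, and the median of the general genes was -0.41. The numbers were not taken to pair the arrays. The deviations of same-numbered arrays from their group means correlated at 0.029 and 0.066 across probe sets.

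The median over the 31 pump genes was -0.18, and -0.11 with quantile normalisation again and -0.34 with brighter probe sets only. It was -0.21 to -0.11 without 1 array. The median of the general genes was -0.68 to -0.33 without 1 array. That of the restricted genes was -0.0067 with quantile normalisation again, -0.0078 with arrays centred on their median, and -0.076 to -0.029 without 1 array. All of these medians kept their sign.

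VhaAC45 turned to 0.035 with quantile normalisation again and 0.027 with centring, and ran from -0.070 to 0.026 without 1 array, above 0 without FRT82B array 2. Without 1 array, VhaPPA1-1 ran from -0.40 to 0.50 and VhaM9.7-b from -0.43 to 0.079, both with the sign turned without FRT82B array 1, as was that of Vha100-1, which ran from -0.47 to 0.60. VhaM9.7-c, near 0 with all arrays, was 0.029 with centring and ran from -0.15 to 0.11, above 0 without lgl array 1, lgl array 2 or FRT82B array 1. The difference of Vha36-3 and Vha36-1 ran from -1.07 to 0.063 without 1 array, and that of Vha100-1 and Vha100-2 from -0.31 to 1.13, in both cases with the sign turned without FRT82B array 1. The cause was not tested. The other pump genes above 6 and Vha36-3 kept their sign. Leaving out Vha68-1 could not be run, since the gene was not analysed here.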
